A study of Homo sapiens with 6 samples.

Results

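The TNF ligand and receptor superfamilies were followed as a set of genes in MDA-MB-231 cells after knockdown of the long noncoding RNA MIR100HG. Members were the genes of the raw count table whose symbol was a numbered TNFSF ligand or TNFRSF receptor, or was NGFR, CD40, CD27, CD70, LTA, LTB, LTBR, TNF or RELT. This rule took 42 of the 27745 genes listed, namely 15 ligands, 6 receptors with a cytoplasmic death domain, 4 decoy or secreted receptors, 16 other receptors and 1 read-through transcript. MDA-MB-231 is an established line of triple-negative breast cancer (TNBC), and the same cells carried every condition. Cells were infected with pLKO.1 lentivirus encoding sh-TRC, the control shRNA, or sh-MIR100HG-1 or sh-MIR100HG-2, both directed against MIR100HG, and total RNA was collected 72 h later. Each of the 3 groups had 2 biological replicates, 6 samples in all, of infected cells of a single line without any step of cloning named in the methods.

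Ligands of the TNF superfamily are mostly trimers made at the cell surface, from which proteases such as ADAM17 can release them, and they bind receptors with cysteine-rich repeats. Receptors with a death domain can recruit TRADD or FADD and start caspase-8 dependent death or NF-kB signalling, whereas most of the others recruit TRAF adapters and feed the canonical or the noncanonical NF-kB pathway. Decoy receptors bind ligand without passing on a death signal. In breast cancer cells the TRAIL system (TNFSF10 and the TNFRSF10 receptors), TNFRSF1A with TNF, and TNFRSF12A, the receptor of TWEAK, are the best known members.

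Total counts ranged from 43804736 to 64588388 per sample. MIR100HG (ENSG00000255248.7_2), the target, was measured at 41.9 and 58.5 CPM (counts scaled to library size after TMM normalisation) in the sh-TRC samples and between 10.4 and 16.6 CPM in the 4 knockdown samples. Of the markers of the line, VIM, CD44, EGFR, AXL and CAV1 summed to between 4392 and 5490.1 CPM, whereas ESR1 did not exceed 2.79 CPM and ERBB2 lay between 71.6 and 116 CPM. Leukocytes make many of these ligands, and PTPRC, the pan-leukocyte marker, did not exceed 0.689 CPM in any sample. A pair of libraries stood apart: sh-TRC replicate 2 and sh-MIR100HG-1 replicate 1 shared 76 genes, KIT among them, with at least 20 counts in both and at most 2 in each of the others, while each of the 14 other pairs of libraries shared 0 such genes. Among the members, TNFSF11 followed this pattern, with 70 and 56 counts in those libraries and 0 in each of the others. TNFRSF8, TNFRSF14 and TNFSF4 were detected in all libraries but had their highest levels in that pair, as did 3.82% of all genes tested. For TNFRSF14 these were 21.3 and 19.6 CPM, against 18.2 CPM in sh-TRC replicate 1. For TNFSF4 they were 1.903 and 1.928 CPM, against 1.880 CPM in sh-TRC replicate 1. Counts of genes called are therefore given without both libraries as well. So is a log2FC of each member that passed an unadjusted p under 0.05 in any comparison. In that fit the single sh-TRC and sh-MIR100HG-1 samples left are assumed to vary as the sh-MIR100HG-2 samples do. CPM and log2FC of genes outside the family are given with all libraries only.

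MDA-MB-231 cells expressed the family unevenly, and the 4 members with the highest control level were receptors. A member was kept for testing unless it had less than 5 counts in at least 3 samples, and 35 of 42 members were kept. The 7 others were TNFRSF13B, TNFRSF17, TNFRSF4, TNFRSF6B, TNFSF11, TNFSF14 and the read-through TNFSF12-TNFSF13. TNFRSF17, the BCMA receptor of plasma cells, TNFRSF6B, a secreted decoy, and the read-through had 0 counts in all 6 samples. All annotated exon bases of TNFRSF6B and of the read-through are shared with other genes, so their counts of 0 say nothing about expression, and for TNFRSF17 expression was not detectable at this depth. TNFSF13 shares 55.5% and TNFSF12 shares 29.4% of its exon bases with the read-through. TNFRSF4, the OX40 receptor of T cells, had 0 counts in both controls and between 3 and 6 counts in each knockdown sample.

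**Figure D1:**
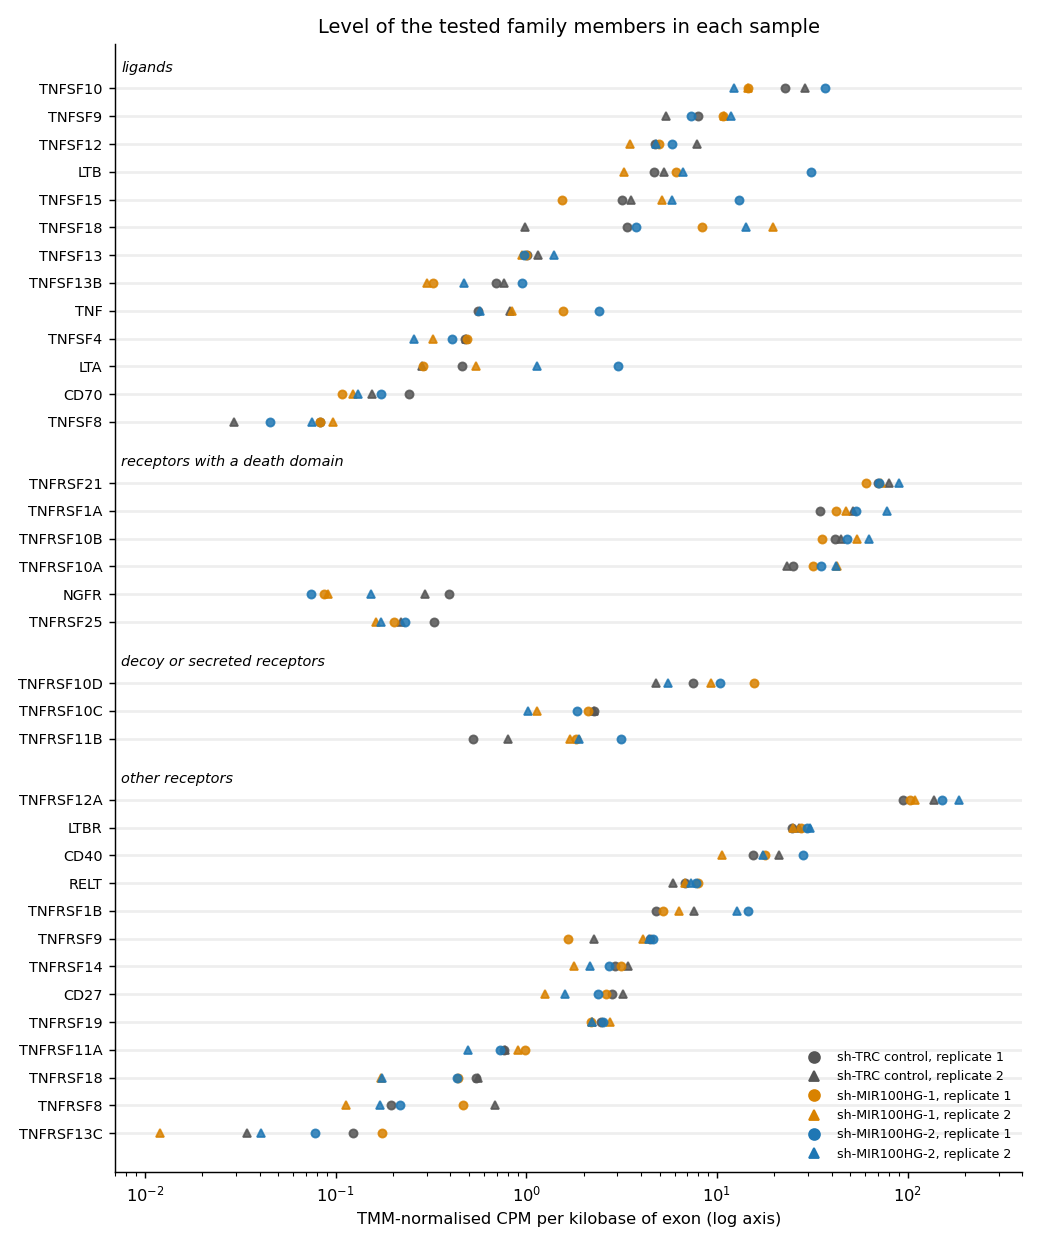
Each point is the level of a tested member in a single sample, in TMM-normalised CPM per kilobase of exon on a log axis, with members grouped by role and ordered by their control mean, circles for replicate 1 and triangles for replicate 2. TNFRSF12A lies highest, at 94.6 and 137.4 in the control, and TNFSF8 lies lowest, at 0.0833 and 0.0292.

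To compare genes with each other, levels were divided by exon length and are given as CPM per kilobase. TNFRSF12A, the receptor of TWEAK, had the highest control level of the family, 116 ± 30.2 CPM per kilobase (SD, n = 2), above 98.1% of the genes tested. TNFRSF21, also called death receptor 6, followed at 74.6 ± 6.77, and next came TNFRSF1A, the main TNF receptor of epithelial cells, at 43.2 ± 12.03 and TNFRSF10B, the TRAIL receptor DR5, at 43.2 ± 2.24 CPM per kilobase (SD, n = 2 for each). The control ranges of the first 3 did not overlap, and those of TNFRSF1A and TNFRSF10B did. TNFSF10, which encodes TRAIL, was the ligand with the highest level at 25.8 ± 4.27 CPM per kilobase, and its range overlapped that of LTBR, the lymphotoxin-beta receptor, at 25.7 ± 1.51, which in turn overlapped that of TNFRSF10A, the TRAIL receptor DR4, at 24.3 ± 1.28 (SD, n = 2). CD40, a receptor of antigen-presenting cells, stood apart at 18.3 ± 4.01 CPM per kilobase. TNFSF9, the 4-1BB ligand, at 6.65 ± 1.79 and the receptor RELT at 6.33 ± 0.665 closed the first 10 and overlapped each other as well as TNFSF12, TNFRSF1B and TNFRSF10D below them. TNF itself was at 0.688 ± 0.188 and LTA at 0.461 and 0.284 CPM per kilobase in the control samples, above 24.4% and 18.3% of the genes tested.

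Among the 10 members with the highest control level, TNFRSF10A was the only one to pass an unadjusted p under 0.05 in edgeR against the control, for either shRNA or their mean. Values per gene are given from here on in CPM, replicate 1 before replicate 2. TNFRSF21 was measured at 251.2 and 286 CPM in the control, at 218 and 260.2 CPM with sh-MIR100HG-1 and at 253 and 324 CPM with sh-MIR100HG-2. LTBR was measured at 155 and 168 CPM in the control, at 173 and 157 CPM with sh-MIR100HG-1 and at 186 and 193 CPM with sh-MIR100HG-2. RELT had 43.0 and 37.1 CPM in the control, 50.5 and 42.8 CPM with sh-MIR100HG-1 and 49.1 and 46.4 CPM with sh-MIR100HG-2. The groups of TNFRSF21 overlapped, both sh-MIR100HG-2 samples of LTBR lay above all the others and those of RELT lay above both controls, and the knockdown log2FC, the mean of both shRNA groups set against sh-TRC, was -0.03 (standard error 0.19), 0.13 (standard error 0.17) and 0.24 (standard error 0.19). TNFRSF1A had 139 and 207 CPM in the control, 168 and 189.9 CPM with sh-MIR100HG-1 and 216 and 313 CPM with sh-MIR100HG-2, so that both sh-MIR100HG-2 samples lay above all the others. CD40 had 39.1 and 53.4 CPM in the control, 45.1 and 26.8 CPM with sh-MIR100HG-1 and 71.8 and 43.9 CPM with sh-MIR100HG-2. TNFSF9 had 13.2 and 8.95 CPM in the control, 18.0 and 18.2 CPM with sh-MIR100HG-1 and 12.2 and 19.8 CPM with sh-MIR100HG-2, above both controls in 3 of the 4 knockdown samples.

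Comparison of the mean of both shRNA groups with the control asked which members depended on MIR100HG. With the threshold of adjusted p at 0.05, the quasi-likelihood test of edgeR called 0 of 15372 genes (0%) and 0 of the 35 members. At an unadjusted p under 0.05 it passed 1180 genes (7.68% of those tested; 3.23% higher, 4.44% lower), and 5 of the 35 members passed, LTA, TNFRSF10A, TNFRSF11B and TNFSF18 with a higher and NGFR with a lower level after knockdown. The median log2FC was 0.04 over the 35 members and -0.04 over all genes tested, with 18 members above and 17 below 0. A log2FC beyond 1 in either direction was found for 4 of the 35 members and for 5.89% of all genes tested. By role, the median log2FC was 0.40 over the 13 ligands tested, 0.09 over the 6 death-domain receptors, 0.70 over the 3 decoy or secreted receptors and -0.01 over the 13 other receptors. The 3 decoy or secreted receptors did not move together, with TNFRSF10C at -0.57, TNFRSF10D at 0.70 and TNFRSF11B at 1.66. Without both libraries that stand apart, TNFRSF10D was at 0.20. As alternatives, edgeR's likelihood ratio test called 109 genes and DESeq2 called 130 genes at that threshold, and TNFRSF11B was the only member among either. In these bulk samples, fewer cells that express a gene and less of its RNA per cell cannot be told apart.

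**Figure D2:**
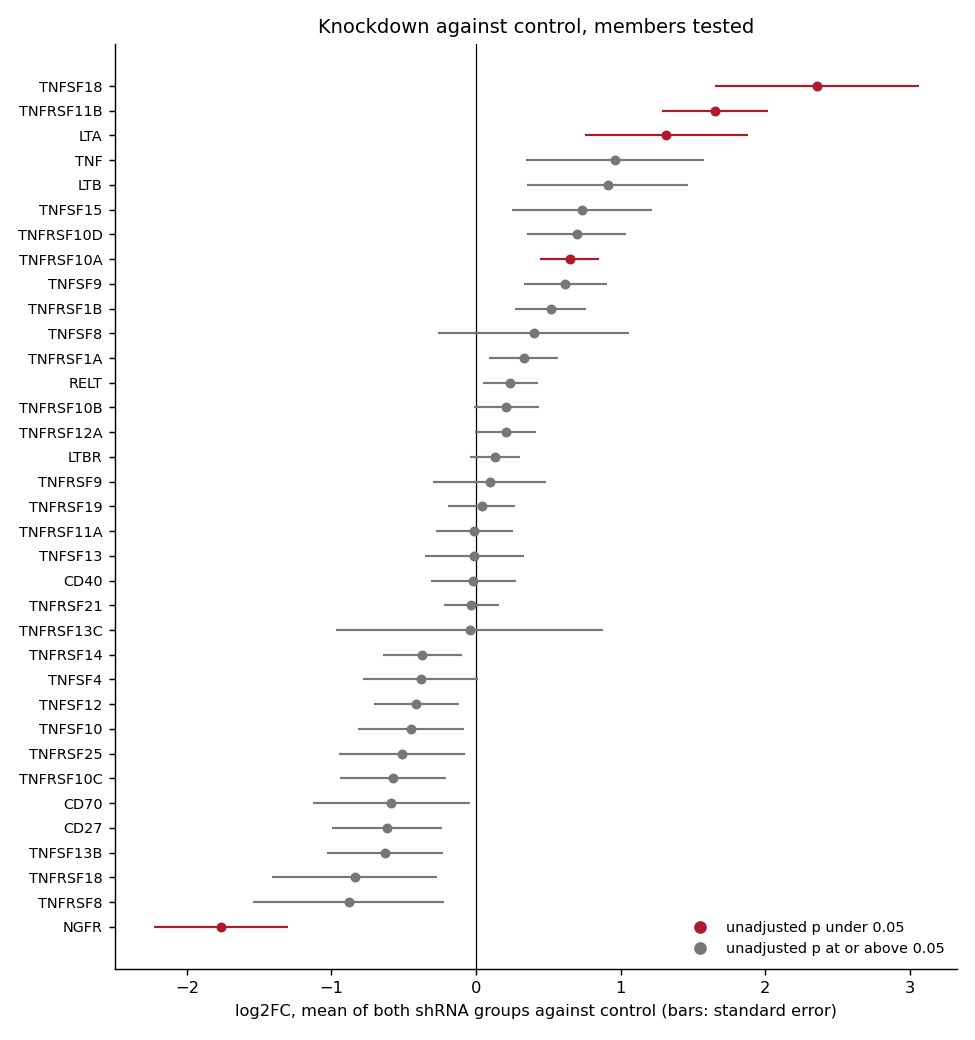
Points give the log2FC of each of the 35 tested members for the averaged shRNA groups against sh-TRC, and bars the standard error of edgeR's quasi-likelihood fit, with red for an unadjusted p under 0.05. TNFSF18 lies farthest to the right at 2.36 and NGFR farthest to the left at -1.77.

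TNFRSF11B (ENSG00000164761.8_1) encodes osteoprotegerin, a secreted receptor that binds RANKL and TRAIL. It was measured at 1.49 and 2.28 CPM in the control, at 5.15 and 4.82 CPM with sh-MIR100HG-1 and at 8.86 and 5.31 CPM with sh-MIR100HG-2. Each of the 4 knockdown samples lay above both controls, and the mean was 1.88 ± 0.557 CPM in the control, 4.98 ± 0.235 CPM with sh-MIR100HG-1 and 7.09 ± 2.51 CPM with sh-MIR100HG-2 (SD, n = 2 for each). Its log2FC came to 1.66 (standard error 0.37, edgeR quasi-likelihood p 0.0017 unadjusted and 0.444 adjusted). Likelihood ratio testing in edgeR gave an adjusted p of 0.0212, and DESeq2 gave 0.00109, in a range from 0.00109 to 0.924 over the 15 alternatives tried. With sh-MIR100HG-1 alone the log2FC was 1.402 and with sh-MIR100HG-2 alone 1.91, and over the fits that each left out 1 library it stayed between 1.38 and 1.996 for the mean of the shRNAs. Without both libraries that stand apart it was 1.97.

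NGFR (ENSG00000064300.8_2, GRCh37, chromosome 17, 47572655 to 47592379, plus strand) encodes the low-affinity neurotrophin receptor p75, a death-domain receptor. NGFR had 1.64 and 1.22 CPM in the control, 0.361 and 0.378 CPM with sh-MIR100HG-1 and 0.309 and 0.639 CPM with sh-MIR100HG-2. These levels rest on 88 and 72 counts in the control and on 14 to 32 counts in the knockdown samples, all of which lay below both controls. Its log2FC was -1.77 (standard error 0.46, edgeR quasi-likelihood p 0.0048 unadjusted and 0.476 adjusted), and was -1.95 with sh-MIR100HG-1 alone and -1.58 with sh-MIR100HG-2 alone. Without both libraries that stand apart the log2FC was -1.95.

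TNFSF18 (ENSG00000120337.8_1, GRCh37, chromosome 1, 173009100 to 173020103, minus strand) encodes the ligand of GITR, a costimulatory receptor of T cells. Its level was 6.80 and 1.99 CPM in the control, 16.8 and 39.7 CPM with sh-MIR100HG-1 and 7.56 and 28.4 CPM with sh-MIR100HG-2. Every knockdown sample lay above both controls, although sh-MIR100HG-2 replicate 1 did so by little and replicates of each group differed widely. The log2FC was 2.36 (standard error 0.71, edgeR quasi-likelihood p 0.0095 unadjusted and 0.521 adjusted), the largest of the members tested. It was 3.50 without sh-TRC replicate 1 and 1.73 without sh-TRC replicate 2, and 1.97 without both libraries that stand apart. For sh-MIR100HG-2 alone the log2FC of 2.04 became 0.79 without sh-MIR100HG-2 replicate 2. TNFRSF18, which encodes its receptor GITR, was measured at 0.745 and 0.765 CPM in the control, at 0.602 and 0.236 CPM with sh-MIR100HG-1 and at 0.595 and 0.240 CPM with sh-MIR100HG-2, below both controls in every knockdown sample, with a log2FC of -0.84 (standard error 0.57, unadjusted edgeR p of 0.179).

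**Figure D3:**
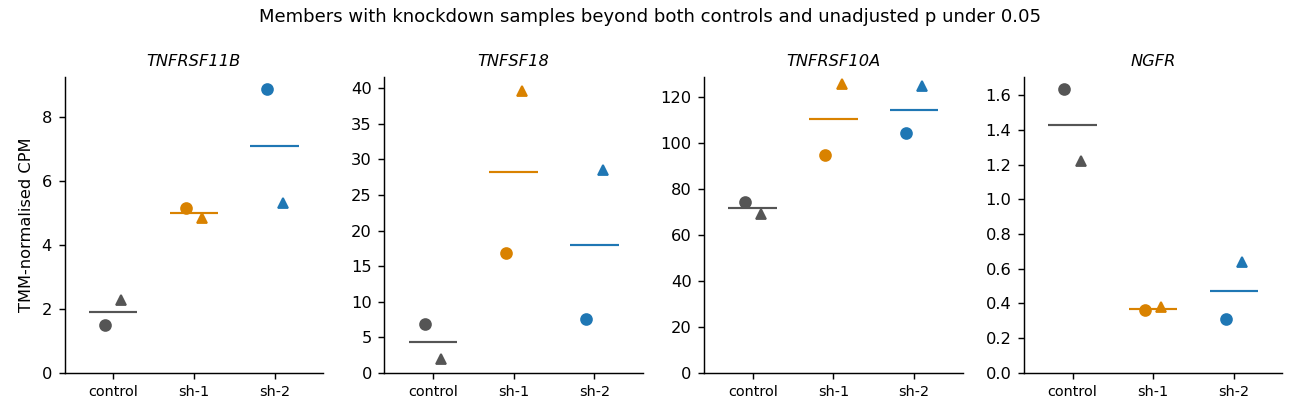
Each panel shows the TMM-normalised CPM of a member in the 6 samples, with sh-TRC (control), sh-MIR100HG-1 (sh-1) and sh-MIR100HG-2 (sh-2) on the horizontal axis, circles for replicate 1, triangles for replicate 2 and a line at the group mean. TNFRSF11B, TNFSF18 and TNFRSF10A lie above both controls in all knockdown samples and NGFR lies below both.

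Sample by sample, all 4 knockdown samples lay beyond both controls for 7 of the 35 members, against 17.5% of all genes tested. They lay above for TNFRSF10A, TNFRSF11B and TNFSF18 (3 of 35, against 8.4% of all genes) and below for CD27, NGFR, TNFRSF10C and TNFRSF18 (4 of 35, against 9.08%). For such a gene the exact permutation test over samples, two-sided over the 15 splits of 4 against 2, can give no p below 0.0667. That smallest p was obtained for TNFRSF10A, TNFRSF11B, TNFSF18 and NGFR, and p was 0.133 for each of the others. These members were picked because their knockdown samples do not overlap the controls, which by itself makes p low, so it adds no support. CD27, a costimulatory receptor of lymphocytes, had 3.95 and 4.55 CPM in the control, 3.67 and 1.77 CPM with sh-MIR100HG-1 and 3.37 and 2.26 CPM with sh-MIR100HG-2, with a log2FC of -0.62 (standard error 0.38, unadjusted edgeR p of 0.145).

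The genes of the 4 TRAIL receptors are neighbours in the genome and near relatives in sequence. How reads that map to several genes were counted is not given in the sources used here, so the split of reads between them is uncertain. TNFRSF10A, the death receptor DR4, was measured at 74.3 and 68.9 CPM in the control, at 94.5 and 126 CPM with sh-MIR100HG-1 and at 104 and 124 CPM with sh-MIR100HG-2. Its knockdown samples all lay above both controls, with a log2FC of 0.65 (standard error 0.20, edgeR quasi-likelihood p 0.0125 unadjusted and 0.545 adjusted) that was 0.62 under sh-MIR100HG-1 alone, against 0.68 under sh-MIR100HG-2. Without both libraries that stand apart it was 0.69, with an unadjusted edgeR p of 0.0693. TNFRSF10B, the death receptor DR5, was measured at 214 and 231 CPM in the control, at 184 and 280.5 CPM with sh-MIR100HG-1 and at 248 and 322 CPM with sh-MIR100HG-2, groups that overlap (log2FC of 0.21, standard error 0.23). TNFRSF10D, a decoy with a truncated death domain, had 26.6 and 17.0 CPM in the control, 55.6 and 33.1 CPM with sh-MIR100HG-1 and 36.6 and 19.7 CPM with sh-MIR100HG-2. Both sh-MIR100HG-1 samples and sh-MIR100HG-2 replicate 1 lay above both controls, whereas sh-MIR100HG-2 replicate 2 lay between them, and the log2FC for sh-MIR100HG-1 was 1.03 (standard error 0.39, edgeR quasi-likelihood p 0.0288 unadjusted and 0.714 adjusted). It became 0.60 without sh-MIR100HG-1 replicate 1 and 0.31 without both libraries that stand apart. TNFRSF10C, a decoy anchored in the membrane by a lipid, had 5.98 and 5.95 CPM in the control, 5.53 and 2.98 CPM with sh-MIR100HG-1 and 4.85 and 2.68 CPM with sh-MIR100HG-2, with a log2FC of -0.57 (standard error 0.37, unadjusted edgeR p of 0.153). For both decoys replicate 1 was above replicate 2 in all 3 groups, although only slightly so for TNFRSF10C in the control.

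On the per-kilobase scale, TNFRSF10B gave the largest share of the summed TRAIL receptor level in every sample, between 41.7% and 59.5%. The decoys TNFRSF10C and TNFRSF10D together made up 12.8% and 9.42% of it in the control, 20.8% and 9.77% with sh-MIR100HG-1 and 12.7% and 5.92% with sh-MIR100HG-2. Replicate 1 was above replicate 2 in each group, and replicates of a shRNA differed from each other more than the group means of 11.1%, 15.3% and 9.33% did. The summed level was 76.5 and 75.2 CPM per kilobase in the control and between 85.6 and 111 CPM per kilobase in the knockdown samples.

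**Figure D4:**
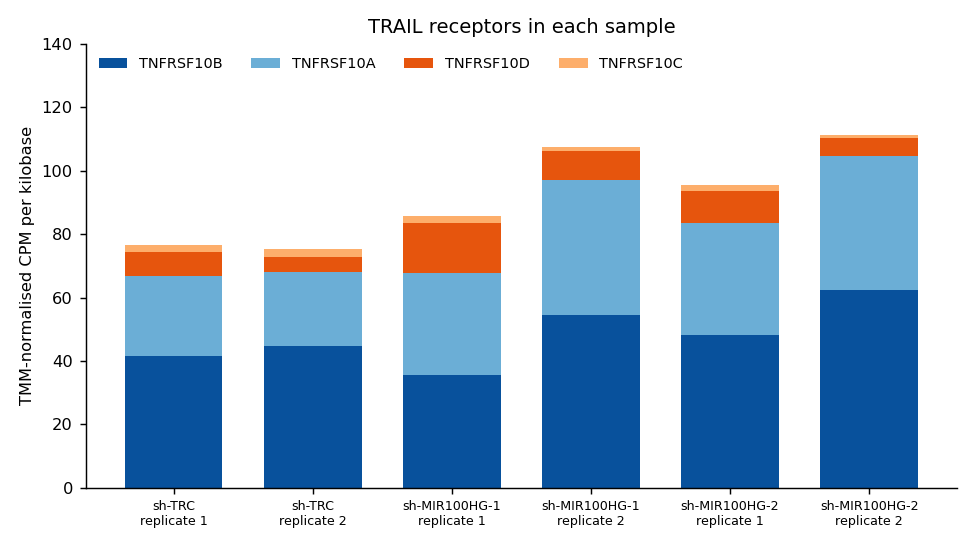
Stacked bars show the 4 TRAIL receptors in each sample in TMM-normalised CPM per kilobase, the death receptors TNFRSF10B and TNFRSF10A in blue and the decoys TNFRSF10D and TNFRSF10C in orange. The decoy share is highest in sh-MIR100HG-1 replicate 1, at 20.8%, and lowest in sh-MIR100HG-2 replicate 2, at 5.92%.

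TNFSF10, the gene of TRAIL itself, was measured at 79.1 and 100.05 CPM in the control, at 50.5 and 50.5 CPM with sh-MIR100HG-1 and at 128 and 42.7 CPM with sh-MIR100HG-2. Both sh-MIR100HG-1 samples lay below both controls, whereas sh-MIR100HG-2 replicate 1 lay above them and replicate 2 was the lowest sample of all. The log2FC was -0.83 (standard error 0.44, unadjusted edgeR p of 0.0929) with sh-MIR100HG-1 and -0.07 (standard error 0.43) with sh-MIR100HG-2. For the mean of both shRNA groups it was -0.45 (standard error 0.37). That value became -0.95 without sh-MIR100HG-2 replicate 1, -0.16 without sh-MIR100HG-2 replicate 2 and -0.27 without both libraries that stand apart. TNFSF10 is known as an interferon-stimulated gene, and 18 other such genes were set beside it. Their summed level was 5704 and 6614 CPM in the control, 3819 and 3090.3 CPM with sh-MIR100HG-1 and 6619 and 4014 CPM with sh-MIR100HG-2. For sh-MIR100HG-1 against control, 13 of the 18 had an unadjusted edgeR p under 0.05, all lower, against 3.77% of all genes tested that were lower. Of the 18, 12 had their highest level in sh-TRC replicate 2, a library that stands apart, and 5 in sh-TRC replicate 1. Of all genes tested, 16.8% and 15.4% were highest in those samples. The part of these 18 genes in the TNFSF10 values was not tested.

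For sh-MIR100HG-1 against control, the quasi-likelihood test of edgeR called 0 of 15372 genes (0%) after adjustment, and 1056 genes passed an unadjusted p under 0.05 (6.87%; 3.1% higher, 3.77% lower). Likelihood ratio testing called 34 genes and DESeq2 called 66, with 0 members among them. Of the 35 members 6 passed the unadjusted threshold, TNFRSF10A, TNFRSF10D, TNFRSF11B and TNFSF18 with a higher and NGFR and TNFSF13B with a lower level, and the median log2FC was -0.11 over the members and -0.0037 over all genes. For sh-MIR100HG-2 against control the same test called 0 genes (0%), and 1362 passed the unadjusted threshold (8.86%; 3.71% higher, 5.15% lower), while the likelihood ratio test called 121 genes and DESeq2 called 167. Of the members 8 passed, LTA, LTB, TNFRSF10A, TNFRSF11B, TNFRSF1B, TNFSF15 and TNFSF18 with a higher and NGFR with a lower level, and their median log2FC was 0.13 against -0.04 over all genes. LTA and TNFRSF11B were called by both alternatives and TNFRSF1B by DESeq2. Both comparisons share the sh-TRC samples.

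The direct comparison of sh-MIR100HG-2 with sh-MIR100HG-1 asked where the shRNAs differ. After adjustment the edgeR quasi-likelihood test called 0 of 15372 genes (0%), and at an unadjusted p under 0.05 it passed 1453 genes (9.45%; 3.34% higher, 6.12% lower with sh-MIR100HG-2). Of the 35 members 6 passed the unadjusted threshold, the ligands LTA, LTB, TNFSF13B and TNFSF15 and the receptors TNFRSF1B and TNFRSF12A, all higher with sh-MIR100HG-2, and 0 members were lower. The median log2FC was 0.27 over the members and -0.01 over all genes tested. As alternatives, the likelihood ratio test called 91 genes, TNFRSF1B among them, and DESeq2 called 103 genes, LTA and TNFRSF1B among them. Many of these higher values come from a single library: sh-MIR100HG-2 replicate 1 was the highest sample for 10 of the 35 members and for 6 of the 13 ligands tested, against 14.6% of all genes tested.

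Promoter windows of the members that passed the unadjusted threshold between the shRNAs are printed so that motif matches can be read beside the values. Windows run from 250 bases before to 50 bases after a RefSeq transcription start, are written 5′ to 3′ on the strand of the gene, and come from GRCh38.p14, not from the build of the counts. RefSeq windows were matched for 27 of the 42 members, 35 windows in all, and TNFRSF12A had no entry. For LTA, LTB and TNFSF13B, which had 2 windows each, a single one is printed. The other LTA window, which starts further upstream, held 0 matches, and the other windows of LTB and TNFSF13B held the same matches as those printed. Motifs were searched on both strands, the NF-kB consensus by name, the AP-1 motif TGANTCA and the interferon response motif, GAAA followed after any 2 bases by GAAA, and matches are in capitals. The LTA window is chr6:31572039-31572338 on the plus strand, LTB is chr6:31582375-31582674 on the minus strand, TNFRSF1B is chr1:12166741-12167040 on the plus strand, TNFSF13B is chr13:108269468-108269767 on the plus strand and TNFSF15 is chr9:114792481-114792780 on the minus strand.
LTA: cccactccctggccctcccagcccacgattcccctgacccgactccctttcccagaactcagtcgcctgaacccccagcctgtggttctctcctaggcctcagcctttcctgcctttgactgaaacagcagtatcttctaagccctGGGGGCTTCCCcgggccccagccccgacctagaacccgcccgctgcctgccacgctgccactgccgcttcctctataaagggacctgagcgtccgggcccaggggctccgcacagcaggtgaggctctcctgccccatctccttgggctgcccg
LTB: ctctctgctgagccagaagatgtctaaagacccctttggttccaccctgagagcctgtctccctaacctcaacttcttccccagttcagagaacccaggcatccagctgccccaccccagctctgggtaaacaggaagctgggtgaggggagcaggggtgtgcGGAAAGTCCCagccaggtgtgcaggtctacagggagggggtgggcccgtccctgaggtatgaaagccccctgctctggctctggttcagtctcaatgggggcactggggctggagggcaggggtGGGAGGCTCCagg
TNFRSF1B: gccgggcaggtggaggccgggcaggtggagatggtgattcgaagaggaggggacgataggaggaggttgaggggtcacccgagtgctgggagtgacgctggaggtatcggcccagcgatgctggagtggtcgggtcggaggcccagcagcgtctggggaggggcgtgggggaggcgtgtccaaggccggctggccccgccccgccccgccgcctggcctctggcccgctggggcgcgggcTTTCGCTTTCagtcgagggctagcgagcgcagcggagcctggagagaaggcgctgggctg
TNFSF13B: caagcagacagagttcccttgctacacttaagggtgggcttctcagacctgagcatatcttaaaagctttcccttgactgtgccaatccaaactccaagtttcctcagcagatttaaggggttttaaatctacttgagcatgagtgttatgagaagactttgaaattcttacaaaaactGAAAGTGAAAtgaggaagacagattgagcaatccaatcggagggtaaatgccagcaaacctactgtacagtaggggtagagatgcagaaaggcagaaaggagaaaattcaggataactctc
TNFSF15: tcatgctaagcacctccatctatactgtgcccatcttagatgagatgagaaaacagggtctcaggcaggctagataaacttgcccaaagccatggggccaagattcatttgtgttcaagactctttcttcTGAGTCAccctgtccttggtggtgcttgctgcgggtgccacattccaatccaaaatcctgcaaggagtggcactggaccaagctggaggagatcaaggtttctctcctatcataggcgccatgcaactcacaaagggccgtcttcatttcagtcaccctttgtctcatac
The capitals mark overlapping NF-kB matches in LTA, NF-kB matches on each side of the start in LTB, an interferon response match in TNFRSF1B and in TNFSF13B, and an AP-1 match in TNFSF15. NF-kB matches were present in 11.3% of all 35114 windows and in 11 of the 35 member windows (9 of 27 members), AP-1 matches in 7.71% and in 6 of 35 (5 members), and interferon response matches in 3.57% and in 7 of 35 (5 members). Windows of a gene can overlap and then share a match. Matches are descriptions of sequence, and binding was not measured.

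LTA (ENSG00000226979.8_1, GRCh37, chromosome 6, 31539831 to 31542101, plus strand) encodes lymphotoxin alpha, a secreted ligand of the TNF receptors, and the NF-kB capitals shown above are in the printed one of its 2 windows. Its level was 0.801 and 0.493 CPM in the control, 0.497 and 0.945 CPM with sh-MIR100HG-1 and 5.29 and 1.98 CPM with sh-MIR100HG-2. The sh-MIR100HG-2 samples both lay above the other 4 samples, which overlapped each other. Against sh-MIR100HG-1 the log2FC was 2.34 (standard error 0.63, edgeR quasi-likelihood p 0.0056 unadjusted and 0.509 adjusted, adjusted DESeq2 p 0.0337 in a range of 0.00358 to 0.742 over 15 alternatives), and it was 1.47 without sh-MIR100HG-2 replicate 1 (unadjusted edgeR p of 0.0652) and 1.94 without both libraries that stand apart. For the averaged shRNA groups, where it also passed the unadjusted threshold, the log2FC was 1.32 (standard error 0.56), against 0.14 under sh-MIR100HG-1 alone and 2.49 under sh-MIR100HG-2 alone, and it became 0.88 without sh-MIR100HG-2 replicate 1.

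LTB (ENSG00000227507.2_1, GRCh37, chromosome 6, 31548302 to 31550299, minus strand) encodes lymphotoxin beta, which holds lymphotoxin alpha at the membrane as the ligand of LTBR. LTB had 7.20 and 8.09 CPM in the control, 9.31 and 4.98 CPM with sh-MIR100HG-1 and 47.8 and 10.1 CPM with sh-MIR100HG-2. The high value belongs to sh-MIR100HG-2 replicate 1, and replicate 2 lay just above the other groups. Its log2FC between the shRNAs was 2.01 (standard error 0.64, edgeR quasi-likelihood p 0.0128 unadjusted and 0.509 adjusted) and became 0.50, with an unadjusted edgeR p of 0.278, without that library. Leaving out both libraries that stand apart gave 2.54. TNF, encoded between LTA and LTB, had 0.931 and 1.38 CPM in the control, 2.61 and 1.42 CPM with sh-MIR100HG-1 and 4.06 and 0.959 CPM with sh-MIR100HG-2, so that its highest value lay in the same library and its groups overlapped (log2FC between the shRNAs of 0.31, standard error 0.68).

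TNFSF15 (ENSG00000181634.7_1, GRCh37, chromosome 9, 117546915 to 117568406, minus strand) encodes TL1A, the ligand of TNFRSF25. Its level was 25.2 and 28.0 CPM in the control, 12.2 and 40.6 CPM with sh-MIR100HG-1 and 102.7 and 45.7 CPM with sh-MIR100HG-2. Both sh-MIR100HG-2 samples lay above all others, and sh-MIR100HG-1 replicate 2 lay close below them. The log2FC between the shRNAs was 1.49 (standard error 0.55, edgeR quasi-likelihood p 0.0258 unadjusted and 0.509 adjusted), 0.79 without sh-MIR100HG-2 replicate 1 (unadjusted edgeR p of 0.177) and 0.87 without both libraries that stand apart (unadjusted edgeR p of 0.0927). TNFRSF25, its receptor, was between 0.638 and 1.28 CPM in the 6 samples.

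TNFRSF1B (ENSG00000028137.17_2, GRCh37, chromosome 1, 12227000 to 12269285, plus strand) encodes TNF receptor 2, which lacks a death domain and binds TRAF2. TNFRSF1B was measured at 18.4 and 29.0 CPM in the control, at 19.9 and 24.1 CPM with sh-MIR100HG-1 and at 55.6 and 48.8 CPM with sh-MIR100HG-2. Both sh-MIR100HG-2 samples lay far above the other 4, and means were 23.7 ± 7.503, 22.0 ± 2.99 and 52.2 ± 4.84 CPM (SD, n = 2 for each). Between the shRNAs the log2FC was 1.25 (standard error 0.28, edgeR quasi-likelihood p 0.0019 unadjusted and 0.509 adjusted), the smallest unadjusted p among the members in this comparison, and 0.0214 was its adjusted p in DESeq2, in a range of 0.00197 to 0.742 over 15 alternatives. It stayed between 1.11 and 1.405 over the fits that each left out 1 library and was 1.11 without both libraries that stand apart.

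TNFRSF12A (ENSG00000006327.13_1, GRCh37, chromosome 16, 3068446 to 3072384, plus strand) was measured at 175 and 254 CPM in the control, at 189.5 and 202 CPM with sh-MIR100HG-1 and at 279 and 344 CPM with sh-MIR100HG-2. Both sh-MIR100HG-2 samples lay above the others, with a log2FC between the shRNAs of 0.67 (standard error 0.24, edgeR quasi-likelihood p 0.0245 unadjusted and 0.509 adjusted). It was 0.62 (unadjusted edgeR p of 0.0991) without both libraries that stand apart. TNFSF12, the gene of its ligand TWEAK, had 8.88 and 14.8 CPM in the control and between 6.54 and 11.0 CPM in the knockdown samples.

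TNFSF13B (ENSG00000102524.11_2, GRCh37, chromosome 13, 108903588 to 108960832, plus strand) encodes BAFF, a survival factor of B cells. TNFSF13B had 2.12 and 2.34 CPM in the control, 0.994 and 0.921 CPM with sh-MIR100HG-1 and 2.91 and 1.44 CPM with sh-MIR100HG-2. Both sh-MIR100HG-1 samples lay below all others. The log2FC between the shRNAs was 1.18 (standard error 0.49, edgeR quasi-likelihood p 0.0400 unadjusted and 0.509 adjusted) and 0.59 without sh-MIR100HG-2 replicate 1, and 1.23 (unadjusted edgeR p of 0.1254) without both libraries that stand apart, while that of sh-MIR100HG-1 against control was -1.22 (standard error 0.48, unadjusted edgeR p of 0.0348).

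**Figure D5:**
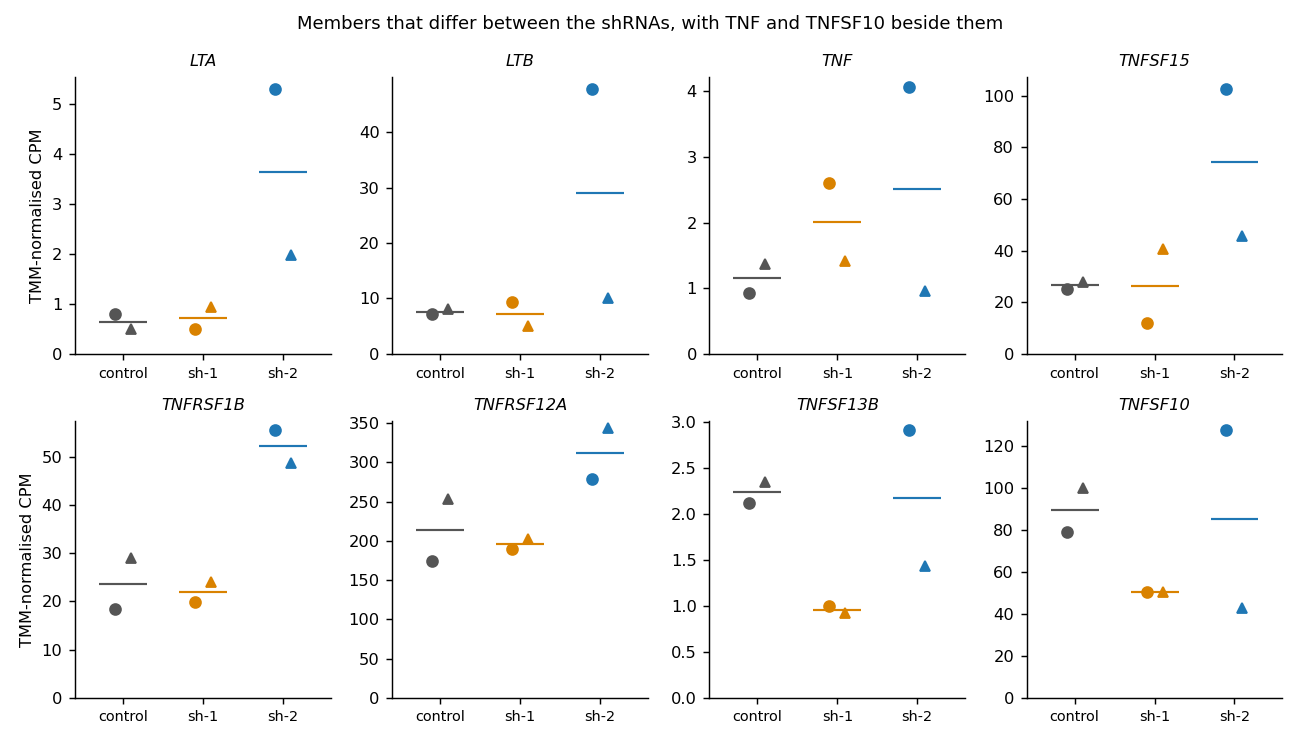
Each panel shows the TMM-normalised CPM of a member in the 6 samples, with sh-TRC (control), sh-MIR100HG-1 (sh-1) and sh-MIR100HG-2 (sh-2) on the horizontal axis, circles for replicate 1, triangles for replicate 2 and a line at the group mean. TNFRSF1B is high in both sh-MIR100HG-2 samples, whereas the LTB value of 47.8 lies in sh-MIR100HG-2 replicate 1 and replicate 2 is at 10.1.

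Genes of the pathway that carry the signal, or answer it, were counted by the same thresholds. Between the shRNAs, 3.34% of all genes tested were higher and 6.12% lower with sh-MIR100HG-2, as given above. Against this background 6 of the 30 tested adapters, kinases and ligases at the receptors were higher with sh-MIR100HG-2 and 0 lower at an unadjusted p under 0.05, with a median log2FC of 0.18. Of the 12 NF-kB subunits, inhibitors and kinases 2 were higher and 0 lower, with a median of 0.40, and 8 of the 12 had their highest level in sh-MIR100HG-2 replicate 1, as did 14.6% of all genes tested. Of the 15 tested genes that TNF induces through NF-kB, some of which are also in the other lists, 4 were higher and 1 was lower. Their summed level was 3844 and 2216 CPM in the control, 2577 and 5019 CPM with sh-MIR100HG-1 and 4994 and 4187 CPM with sh-MIR100HG-2. Of the 18 interferon-stimulated genes 11 were higher and 0 lower, with a median of 1.12. The part of these genes in the LTA, LTB, TNFSF15, TNFRSF1B and TNFSF13B values was not tested.

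Against the control, where 3.23% of all genes tested were higher and 4.44% lower for the mean of both shRNA groups, the unadjusted threshold was passed by 1 higher and 1 lower of the 30 adapters, 1 higher of the 12 NF-kB genes, 3 higher of the 15 TNF-induced genes, 1 higher and 1 lower of the 5 sheddases and their partners, and 6 lower of the 18 interferon-stimulated genes. The adapter counts lie near the shares of all genes, and a single gene in a short list cannot be told apart from them. FAS and EDA, the tested ones of 6 relatives outside the rule, did not pass. ICAM1, an adhesion molecule, had 239 and 265 CPM in the control, 215 and 363 CPM with sh-MIR100HG-1 and 1102 and 662 CPM with sh-MIR100HG-2, with a log2FC of 1.004. CXCL1, a chemokine of neutrophils, had 62.8 and 45.8 CPM in the control, 38.2 and 142 CPM with sh-MIR100HG-1 and 244 and 185 CPM with sh-MIR100HG-2, with a log2FC of 1.36. In both genes the sh-MIR100HG-2 samples were the highest. TRADD, the adapter of TNFRSF1A, had 19.2 and 30.4 CPM in the control, 13.7 and 13.0 CPM with sh-MIR100HG-1 and 19.3 and 18.5 CPM with sh-MIR100HG-2, with a log2FC of -0.64. RHBDF2, the iRhom2 partner of ADAM17 in releasing TNF, had 48.2 and 57.7 CPM in the control and between 27.5 and 47.2 CPM in the knockdown samples, with a log2FC of -0.56. The interferon-stimulated genes with the smallest p were OASL, ISG15, MX2 and IFIH1, with log2FC of -0.78, -0.87, -1.50 and -0.86. In that order, log2FC were -1.21, -1.09, -2.58 and -0.98 with sh-MIR100HG-1 alone and -0.35, -0.64, -0.41 and -0.74 with sh-MIR100HG-2 alone. For OASL, ISG15 and IFIH1 all knockdown samples lay below both controls, whereas MX2 in sh-MIR100HG-2 replicate 1 lay between them. Adjusted edgeR p-values of these 8 genes were 0.447 or more.

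The remaining members were tested without passing the unadjusted threshold in any comparison. They comprised the ligands TNFSF4, TNFSF8, TNFSF12, TNFSF13 and CD70, which lay at or below 14.8 CPM in every sample, and the receptors TNFRSF8, TNFRSF9, TNFRSF11A, TNFRSF13C, TNFRSF14, TNFRSF19 and TNFRSF25. TNFRSF9, the 4-1BB receptor of TNFSF9, had 28.3 and 14.4 CPM in the control, 10.5 and 26.0 CPM with sh-MIR100HG-1 and 29.3 and 27.9 CPM with sh-MIR100HG-2, and its sh-MIR100HG-1 replicates spanned most of that range. TNFRSF19 lay between 11.2 and 14.1 CPM and TNFRSF11A, the RANK receptor, between 4.47 and 8.82 CPM. TNFRSF14, the receptor HVEM of LIGHT, lay between 11.0 and 21.3 CPM and TNFRSF8, the CD30 receptor, between 0.425 and 2.57 CPM, both highest in sh-TRC replicate 2, a library that stands apart. TNFRSF13C, a BAFF receptor of B cells, was at or below 0.693 CPM.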

How the data were processed

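RNA-seq was measured in 6 samples, 2 for each of sh-TRC, sh-MIR100HG-1 and sh-MIR100HG-2, grouped by the labels. The authors trimmed barcodes, mapped reads to GRCh37 with STAR (2.5.2a per the processing notes, another version in the methods), assigned reads to GENCODE exons with FeatureCounts and deposited raw counts per gene with exon lengths; strand, read pairs and multi-mapping reads are not given in the sources used here. The filter removed 12373 of 27745 genes, those under 5 counts in 3 or more of the 6 samples. Counts were normalised by TMM and the 3 groups fitted in 1 model by the quasi-likelihood test of edgeR 4.0.16 (R 4.3.3), with Benjamini-Hochberg adjustment over 15372 genes. The biological coefficient of variation was 27.8%, with 3 residual degrees of freedom. DESeq2 1.42.0, the likelihood ratio test, other scaling, no filter, a replicate block and left-out libraries were alternatives. Symbols matched 26966 genes. Members, lists and the promoter motifs were chosen with earlier results of these data known. Genes were named by a rule: members with an unadjusted p under 0.05 in any comparison or with all knockdown samples beyond both controls, the 10 highest in the control, the TRAIL receptors with TNFSF10 and TNFRSF11B, and 8 pathway genes with the smallest p.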

Additional observations from a re-analysis of the deposited data

Results flagged for a closer look

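TNFRSF11A, the receptor RANK of the ligand TNFSF11, was singled out because its samples moved in opposite directions with the shRNAs. It had 6.85 and 6.92 CPM in the control, 8.82 and 8.12 CPM with sh-MIR100HG-1, both above the controls, and 6.53 and 4.47 CPM with sh-MIR100HG-2, both below. The difference between the shRNAs missed the threshold, with a log2FC of -0.62 for sh-MIR100HG-2 over sh-MIR100HG-1 (standard error 0.31, edgeR quasi-likelihood p 0.0756 unadjusted and 0.552 adjusted).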

How the results depend on the processing

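At an adjusted p at or below 0.05, the number of genes called, 0 in each of the 4 comparisons with the quasi-likelihood test, depended on the test and the filter. In the order of the averaged shRNAs, sh-MIR100HG-1 and sh-MIR100HG-2, each against sh-TRC, and then the shRNAs against each other, the likelihood ratio test called 109, 34, 121 and 91 genes, DESeq2 called 130, 66, 167 and 103, and testing without the filter on low counts called 392, 227, 517 and 679. The cause was not tested. Without the filter, TNFRSF11B, TNFSF11 and TNFSF18 were called for the mean of the shRNAs, TNFSF18 for sh-MIR100HG-1, 7 members for sh-MIR100HG-2 and 5 between the shRNAs. TNFSF11, which is also among those 7 and those 5, had counts only in the pair of libraries that stand apart. Leaving out 1 library at a time called between 0 and 1, 0 and 3, 0 and 5 and 0 and 7 genes, and 0 members. Leaving out both sh-TRC replicate 2 and sh-MIR100HG-1 replicate 1, chosen after seeing the data, called 1, 0, 12 and 14 genes and 0 members. The number of members at an unadjusted p under 0.05, with 5, 6, 8 and 6 in the order above, lay between 3 and 8, 2 and 8, 5 and 8, and 4 and 8 over the fits that left out 1 library. It was 12 for the mean of the shRNAs and 12 between the shRNAs without the filter, and 3 for sh-MIR100HG-1 without both libraries. Of 435 log2FC values of single members under the alternatives, 23 passed the adjusted threshold that they had missed, and 0 reversed. The control decoy share of 11.1% was 8.63% on CPM not divided by length. Replicate numbers, for which the labels name no shared batch, were not taken as pairs: samples of the same number had correlations of deviations of -0.21 and 0.02 between the control and sh-MIR100HG-1 or sh-MIR100HG-2, although 0.50 between the shRNAs. With the replicate block 0 genes were called in each comparison, and 7, 6, 9 and 8 members passed the unadjusted threshold. Crossing the control numbers in that block, 0 genes were called in each comparison. Between 73.0% and 77.1% of counts from 2 to 20 were even in each library, and halving all counts, also chosen after seeing the data, called 0 genes. NGFR, LTA, TNF and TNFRSF18 rest on few counts, so counting error adds to the spread there, and 2 samples a group limit every comparison.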
